A study of Mus musculus with 6 samples.

Results

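Glutamate and GABA, the main excitatory and inhibitory transmitters of the brain, act on receptors built from many subunits, and each subunit has its own gene. The 33 receptor genes described here were taken by symbol from the 32285 genes of the matrices. They comprise 22 glutamate receptor genes (16 ionotropic and 6 metabotropic), 9 subunits of the GABA-A receptor and 2 subunits of the GABA-B receptor, and all 33 were present once in every matrix. Nuclei came from the cortex of 7.5-month-old mice and were sorted for the absence of NeuN, a neuronal nuclear protein, so the material was meant to hold glia and vessel cells. The 3 groups were 5xFAD-M28L, 5xFAD-P522R and 5xFAD, with 2 libraries each, called replicates 2 and 3 after the R2 and R3 of their labels, and each library mixed nuclei of male and female mice. All 3 groups carry 5xFAD, an amyloid model whose transgenes are driven by the neuronal Thy1 promoter, and no group lacks it. M28L and P522R are variants of phospholipase C-γ2 (Plcg2), an enzyme of immune cells that microglia use in receptor signalling, and the series title links them to differential risk for Alzheimer’s disease. Whether they are heterozygous or homozygous, and whether replicates 2 and 3 are separate animals, is not given in the sources used here.

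Ionotropic glutamate receptors are ion channels of the AMPA (Gria), kainate (Grik), NMDA (Grin) and delta (Grid) families, while metabotropic ones (Grm) act through G proteins. GABA-A receptors (Gabr) are chloride channels, and GABA-B receptors (Gabbr) act through G proteins as pairs of Gabbr1 and Gabbr2. Outside neurons, astrocytes sense glutamate through metabotropic receptors, and oligodendrocyte precursors receive synapses from neurons through AMPA and GABA-A receptors. In AMPA receptors the Gria2 subunit keeps calcium out, and in NMDA receptors the Grin2c and Grin3a subunits weaken the magnesium block.

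The 6 libraries held 62687 barcodes, between 9269 and 13783 each, with 53326947 to 72288942 unique molecular identifiers (UMIs, counted RNA molecules) and a median of 3842 to 4972 UMIs per barcode. Between 140 and 196 barcodes of each library also occurred in another library. After filters and removal of doublets (3.67% to 4.68% of nuclei), 60085 nuclei remained, and 53487 of them fell into clusters named from marker genes and called “-like” for that reason. The 33 receptor genes were left out of clustering. In all, 11 classes held enough nuclei for tests, from 27783 oligodendrocyte-like nuclei down to 320 nuclei like committed oligodendrocyte precursors. Despite the sort, 1515 excitatory-like and 3600 inhibitory-like neurons remained (1.75% to 3.48% and 4.64% to 7.36% of nuclei per library). Some inhibitory-like clusters were led by Drd2 and Rgs9 or by Stac and Drd3, genes better known from the striatum and its surroundings than from the cortex that the labels name. The border macrophage-like cluster also carried T cell markers, the endothelial-like cluster carried markers of pericytes, and an oligodendrocyte-like cluster was led by mitochondrial transcripts.

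Receptor transcripts were not confined to neurons. Levels are given first as CPM, the UMIs of a gene scaled to a total of 1000000 UMIs for its class and library, and compare 1 gene between classes, not genes with each other, because they are not scaled by gene length. Of the 33 genes, 12 were highest in excitatory-like neurons and 9 in inhibitory-like neurons. The other 12 were highest outside neurons, with 5 in astrocyte-like nuclei, 3 in oligodendrocyte precursor-like nuclei, 2 in committed precursor-like nuclei and 2 in mural-like nuclei (pericytes and smooth muscle). For 9 of these 12 the libraries of the highest class did not overlap with those of the second class, against 11 of the 21 that were highest in neurons. Because classes were built by clustering the same nuclei, these orders are a description with no test. The same counts were not made over all genes, so they do not show whether receptor genes differ from other genes in this. The count of genes that were highest outside neurons ranged from 12 to 14 when each library was left out in turn.

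**Figure D1:**
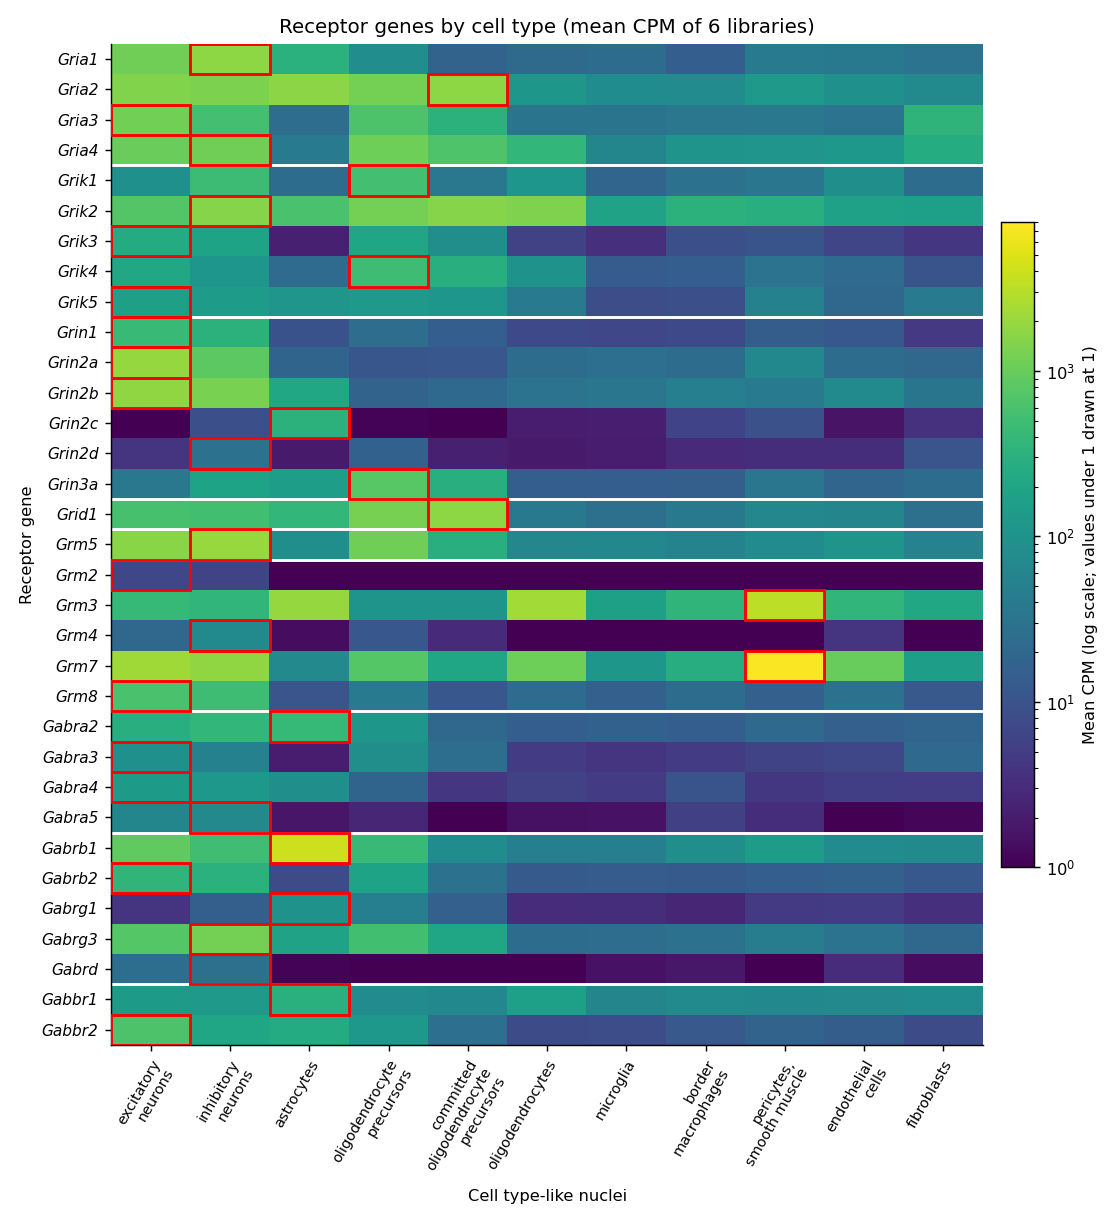
Mean CPM of the 33 receptor genes (rows, split by receptor family) in the 11 tested classes (columns), coloured on a log scale with values under 1 CPM drawn at 1, and with the highest class of each gene boxed in red. The boxes fall on the 2 neuronal classes for 21 genes and on glial or mural-like classes for 12.

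Among NMDA receptor subunits, Grin1 (chr2:25291181-25319187 on GRCm38, the mm10 build, minus strand), which every NMDA receptor needs, stayed close to neurons. Over the 6 libraries its lowest, median and highest CPM were 419.5, 424.5 and 451.5 in excitatory-like neurons, 276.7, 325.3 and 359.5 in inhibitory-like neurons, and 7.48, 9.29 and 13.3 in astrocyte-like nuclei. No glial or vessel class averaged above 24.5 CPM of Grin1, the mean in oligodendrocyte precursor-like nuclei. Grin2a and Grin2b, the main partner subunits of Grin1 in the forebrain, followed it with means of 1922 and 1798 CPM in excitatory-like neurons. Grin2b also averaged 215.6 CPM in astrocyte-like nuclei, where Grin2a averaged 17.8 CPM.

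Grin2c (chr11:115249169-115267243, minus strand), known in the cerebellum and in astrocytes, was the gene closest to a single class. In astrocyte-like nuclei it stood at 380.2 and 323.3 CPM in M28L, 319.5 and 312.8 CPM in P522R, and 297.9 and 323.4 CPM in 5xFAD. The second class, mural-like nuclei, averaged 9.22 CPM, so the astrocyte-like mean of 326.2 ± 28.1 CPM (SD, n = 6 libraries) was 35.4-fold higher. The inhibitory-like mean was 8.96 CPM, and within neurons the transcript was concentrated in a cluster led by Kcnmb2 and Calb2, with 92.0 CPM.

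Grin3a (chr4:49661611-49845744, minus strand), an unusual subunit that lowers calcium flow, was highest in oligodendrocyte precursor-like nuclei. Those nuclei held 807.8 and 797.3 CPM in M28L, 717.3 and 735.6 CPM in P522R, and 752.6 and 834.1 CPM in 5xFAD. The mean of 774.1 ± 45.7 CPM was 2.70-fold that of committed precursor-like nuclei (286.4 CPM), and the 6 libraries of one class did not overlap with those of the other. Inhibitory-like neurons averaged 184.4 CPM, astrocyte-like nuclei 148.9 CPM and oligodendrocyte-like nuclei 14.9 CPM. Grin2d, a subunit of interneurons, averaged 28.3 CPM in inhibitory-like neurons and 16.3 CPM in oligodendrocyte precursor-like nuclei.

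**Figure D2:**
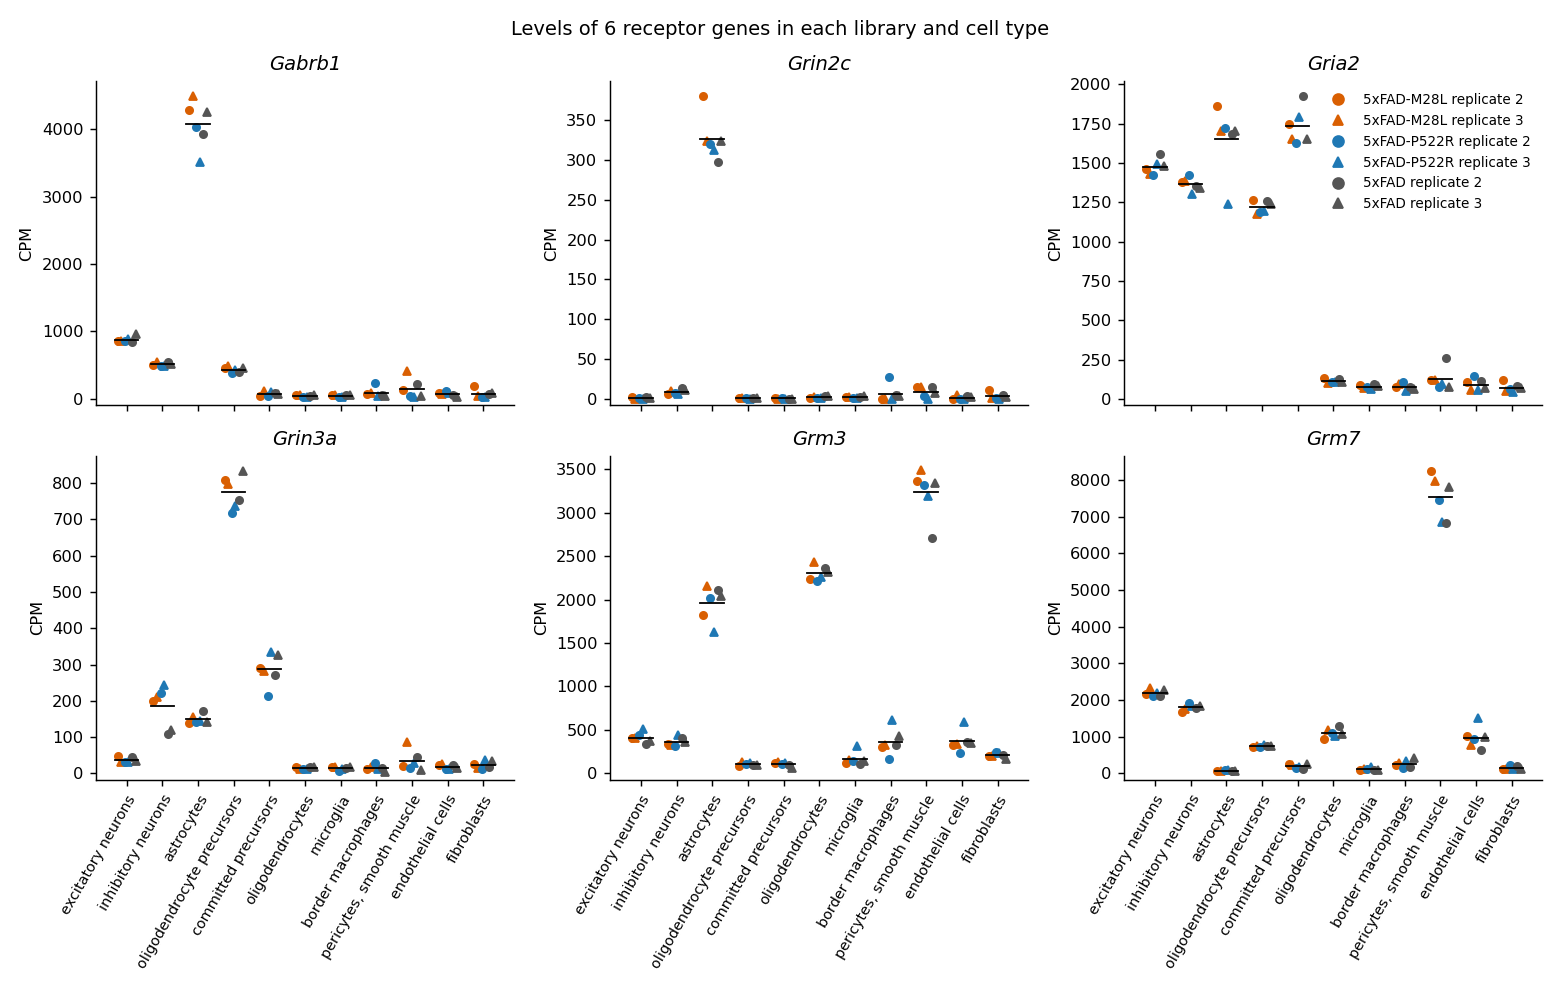
CPM of 6 receptor genes in each class, 1 point per library coloured by group, with the mean as a black line. Grin2c stands near 326 CPM in astrocyte-like nuclei and under 10 CPM on average elsewhere, and Grm7 is highest in mural-like nuclei with all 6 libraries between 6824 and 8252 CPM.

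The AMPA subunit Gria2 (chr3:80681450-80802835, minus strand) was carried at similar levels by 5 classes. Its mean was 1733 CPM in committed precursor-like nuclei, 1654 CPM in astrocyte-like nuclei, 1475 CPM in excitatory-like neurons, 1365 CPM in inhibitory-like neurons and 1220 CPM in oligodendrocyte precursor-like nuclei. Library ranges of the first and second classes overlapped. It averaged 114.8 CPM in oligodendrocyte-like nuclei and 78.1 CPM in microglia-like nuclei.

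The other AMPA subunits split the classes differently. Gria1 averaged 1737 CPM in inhibitory-like neurons and 307.8 CPM in astrocyte-like nuclei, but 83.3 CPM in oligodendrocyte precursor-like nuclei. Gria3, which lies on the X chromosome, averaged 1188 CPM in excitatory-like neurons, 651.0 CPM in oligodendrocyte precursor-like nuclei and 346.6 CPM in fibroblast-like nuclei, against 25.2 CPM in astrocyte-like nuclei. Gria4 averaged 1146 CPM in inhibitory-like neurons and 1114 CPM in oligodendrocyte precursor-like nuclei, with overlapping libraries, and 40.7 CPM in astrocyte-like nuclei. Relative to each gene's own highest neuronal class, astrocyte-like nuclei reached 112% for Gria2 and 17.7% for Gria1, but 2.12% for Gria3 and 3.55% for Gria4. The fibroblast-like signal came from different clusters for the 2 genes: Gria3 averaged 439.9 CPM in the cluster led by Slc6a20a and Ranbp3l and 127.1 CPM in that led by Bnc2 and Slc47a1, while Gria4 averaged 75.3 and 658.0 CPM there.

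Kainate and delta subunits were the receptor group most often highest in the oligodendrocyte lineage, with 3 of 6 genes. Grik1 had lowest, median and highest values of 520.2, 544.7 and 569.2 CPM in oligodendrocyte precursor-like nuclei and 393.2, 484.3 and 563.1 CPM in inhibitory-like neurons, so the libraries overlapped. Grik4, a subunit that works only beside another kainate subunit, averaged 495.1 ± 34.7 CPM in oligodendrocyte precursor-like nuclei, 1.74-fold the 284.3 CPM of committed precursor-like nuclei. Grik2, which forms kainate channels alone, was spread over inhibitory-like neurons (1576 CPM), committed precursor-like nuclei (1560 CPM), oligodendrocyte-like nuclei (1398 CPM) and oligodendrocyte precursor-like nuclei (1219 CPM). Grid1, the delta subunit that binds synaptic organiser proteins, averaged 1725 CPM in committed precursor-like nuclei and 1265 CPM in oligodendrocyte precursor-like nuclei, with no overlap of libraries, against 591.5 CPM in excitatory-like neurons. Grik3 and Grik5 were highest in excitatory-like neurons, at 255.3 and 165.2 CPM.

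Along the order from oligodendrocyte precursor-like to committed precursor-like and oligodendrocyte-like nuclei, the genes did not move together. Grin3a had means of 774.1, 286.4 and 14.9 CPM in that order, and Grm5 had 1150, 277.7 and 64.1 CPM. Gria2 and Grid1 peaked in the middle class, with 1733 and 1725 CPM, and stood at 114.8 and 37.6 CPM in oligodendrocyte-like nuclei. Grm3 went the other way, with 106.4, 106.2 and 2306 CPM. Grm7 was lowest in the middle class, with 739.6, 198.6 and 1103 CPM, and Grik2 stayed high at all 3 steps.

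Oligodendrocyte-like nuclei were themselves uneven for Grik1. Its mean was 43.4 CPM in the cluster led by Kit and Synpr, 87.3 CPM in that led by Slc13a1 and Opalin, 168.6 CPM in that led by Abca8a and Anln, and 382.6 CPM in an unnamed cluster with 11 of 12 oligodendrocyte markers and Enpp6 among its first genes. Across the same 4 clusters Grik2 averaged 1652, 1426, 1244 and 890.1 CPM. The 2 kainate genes were therefore ordered oppositely over these clusters, and library ranges of Grik1 did not overlap between any 2 of them.

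Of the metabotropic receptors, Grm7 (chr6:110645581-111567230, plus strand), a presynaptic receptor of low glutamate affinity in neurons, was highest in mural-like nuclei. These held 8252 and 7961 CPM in M28L, 7450 and 6857 CPM in P522R, and 6824 and 7798 CPM in 5xFAD. The mean of 7524 ± 589 CPM was 3.43-fold that of excitatory-like neurons (2193 CPM). In mural-like nuclei the 10 neuronal transcripts used as a spill-over check stood at a median of 3.34% of their excitatory-like level, against 343% for Grm7. The highest of the 10 was Nrgn at 22.9%. The part of neuronal RNA in the Grm7 level was not tested. Endothelial-like nuclei averaged 974.6 ± 299 CPM, and that cluster carried pericyte markers.

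Grm3 (chr5:9485541-9725170, minus strand), a receptor that lowers cyclic AMP and is best known in astrocytes, was also highest in mural-like nuclei. Mural-like nuclei held 3365 and 3486 CPM in M28L, 3319 and 3192 CPM in P522R, and 2712 and 3344 CPM in 5xFAD. Oligodendrocyte-like nuclei averaged 2306 ± 83.7 CPM and astrocyte-like nuclei 1963 CPM, and only 364.5 to 412.8 CPM were found in the 2 neuronal classes. The mural-like and oligodendrocyte-like ranges did not overlap.

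Grm5, the one receptor of the list that couples to calcium release, averaged 1970 CPM in inhibitory-like neurons, 1594 CPM in excitatory-like neurons and 1150 CPM in oligodendrocyte precursor-like nuclei. In astrocyte-like nuclei it averaged 88.4 CPM, 4.49% of the inhibitory-like level. Grm8 averaged 598.6 CPM in excitatory-like neurons, and Grm4 70.8 CPM in inhibitory-like neurons. Grm2 was scarce in every class, at no more than 6.69 CPM on average.

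GABA-A subunits were highest in neurons for 6 of 9 genes and in astrocyte-like nuclei for the other 3. Gabrb1, a β subunit, was the member with the clearest lead in astrocytes after Grin2c. It starts back to back with Gabra4, an α subunit, on chromosome 5: GENCODE places Gabrb1 at chr5:71658113-72149037 on the plus strand and Gabra4 at chr5:71569749-71658308 on the minus strand, an overlap of 196 bases. The start windows of both genes are shown because reads near them can belong to either gene when strand is not used, and strand use in counting is not given in the sources used here. They come from RefSeq on GRCm38.p6, run 5′ to 3′ on the strand of each gene and cover chr5:71657671-71657970 for Gabrb1 and chr5:71658259-71658558 for Gabra4. The 250 bases before the RefSeq start are in lower case and the first 50 bases transcribed according to RefSeq in capitals. RefSeq and GENCODE place the start of Gabrb1 differently. The RefSeq window of Gabrb1 ends at 71657970, before the GENCODE start at 71658113, and lies inside the GENCODE Gabra4 gene. The overlap of 196 bases holds for the GENCODE positions only.
Gabrb1: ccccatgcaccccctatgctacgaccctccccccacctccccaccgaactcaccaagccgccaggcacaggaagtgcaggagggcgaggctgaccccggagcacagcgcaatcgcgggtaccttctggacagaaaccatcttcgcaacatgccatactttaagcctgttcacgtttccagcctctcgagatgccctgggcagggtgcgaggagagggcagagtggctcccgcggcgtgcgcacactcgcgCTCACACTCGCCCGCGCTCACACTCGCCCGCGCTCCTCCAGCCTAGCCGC
Gabra4: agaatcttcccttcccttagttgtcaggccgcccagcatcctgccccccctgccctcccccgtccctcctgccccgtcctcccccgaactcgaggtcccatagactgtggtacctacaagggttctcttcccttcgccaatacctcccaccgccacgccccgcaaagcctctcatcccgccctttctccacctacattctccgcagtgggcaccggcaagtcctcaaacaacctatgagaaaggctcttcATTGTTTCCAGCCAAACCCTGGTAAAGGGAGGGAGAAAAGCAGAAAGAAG
The Gabrb1 window held 25 CpG dinucleotides at 66% G and C, and the Gabra4 window 12 at 58.7%. Start windows were matched for 23 of the 33 genes.

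In astrocyte-like nuclei Gabrb1 stood at 4284 and 4492 CPM in M28L, 4029 and 3510 CPM in P522R, and 3925 and 4261 CPM in 5xFAD. The mean of 4084 ± 345 CPM was 4.65-fold that of excitatory-like neurons (878.7 CPM), with no overlap of libraries. Its neighbour Gabra4 did not follow this order, with 136.1 CPM in excitatory-like neurons, 120.4 CPM in inhibitory-like neurons and 86.9 CPM in astrocyte-like nuclei. Gabra2 and Gabrg1 lie with both of them in a span of 1398 kb. Gabra2, an α subunit, averaged 410.3 CPM in astrocyte-like nuclei and 380.8 CPM in inhibitory-like neurons, with overlapping libraries. Gabrg1, a γ subunit, averaged 97.7 CPM in astrocyte-like nuclei, 2.02-fold the 48.4 CPM of oligodendrocyte precursor-like nuclei. In all, 3 of the 4 genes in the span were therefore highest in astrocyte-like nuclei.

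The remaining GABA-A genes were neuronal first. Gabrg3 averaged 1204 CPM in inhibitory-like neurons, 740.4 CPM in excitatory-like neurons and 525.8 CPM in oligodendrocyte precursor-like nuclei. Gabra3, on the X chromosome, averaged 89.6 CPM in excitatory-like neurons and 84.8 CPM in oligodendrocyte precursor-like nuclei, and the libraries overlapped. Gabra5 and Gabrd, both known from extrasynaptic receptors, averaged 69.6 and 27.4 CPM in inhibitory-like neurons and at most 5.47 and 3.11 CPM outside neurons. Gabrb2 averaged 356.4 CPM in excitatory-like neurons. Of the GABA-B pair, Gabbr1 averaged 297.8 ± 20.6 CPM in astrocyte-like nuclei, 1.90-fold the 157.0 CPM of oligodendrocyte-like nuclei, while Gabbr2, which carries the pair to the membrane, was highest in excitatory-like neurons (652.6 CPM) and averaged 8.06 CPM in oligodendrocyte-like nuclei.

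Glial levels were set beside those of 10 neuronal transcripts, because RNA set free from neurons can enter other nuclei's counts. Their median level was 2.51% of the excitatory-like level in microglia-like nuclei, 3.46% in astrocyte-like nuclei and 3.67% in oligodendrocyte precursor-like nuclei. Relative to their own neuronal level, 18 of 33 receptor genes in oligodendrocyte precursor-like nuclei stood above the highest of these 10 transcripts, Rbfox1 at 41.6%. In astrocyte-like nuclei 13 stood above the highest, Nrgn at 34.1%. The same count was not made over all genes, and the part of neuronal RNA in these levels was not tested. Relative to neurons, the median receptor gene reached 49.6% in oligodendrocyte precursor-like nuclei and 10.7% in astrocyte-like nuclei.

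Microglia-like nuclei, whose type is known as the main site of Plcg2 in the brain, held every receptor gene below its neuronal level. Their median receptor gene reached 4.23% of the neuronal level, against a median of 2.51% for the 10 neuronal transcripts. Above that median stood 24 of 33 genes, against 23 of 33 above the list median in astrocyte-like nuclei. Above the highest neuronal transcript, which was Nrgn at 18.1%, stood 4 of 33 genes. These counts were not made over all genes. These 4 were Grin2c, Grm3, Gabrg1 and Gabbr1. Grin2c and Gabrg1 stood at 0.642% and 3.27% of their astrocyte-like level, against a median of 2.34% and a maximum of 18.8% (Apoe) for 10 astrocyte transcripts in microglia-like nuclei. Grm3 averaged 165.0 CPM, 7.16% of the oligodendrocyte-like level, where 8 oligodendrocyte transcripts ran at a median of 5.94%. Gabbr1 averaged 58.9 CPM, 19.8% of its astrocyte-like level. It was higher in every library in the microglia-like cluster led by Selplg and Siglech (67.1 to 81.6 CPM) than in that led by Igf1 and Cd84 (45.7 to 52.3 CPM). The part of RNA from other classes in the values of these 4 genes was not tested.

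Astrocyte-like nuclei fell into 2 clusters with different levels of several receptor genes. One was led by Myoc, Thbs4 and Gfap, the filament protein of reactive and surface astrocytes, and held 650 nuclei, and the other held 3260. Of 32 receptor genes with at least 10 UMIs over both clusters, 7 were higher in the Gfap cluster in all 6 libraries, against 15.2% of 17313 genes with as many UMIs. In the other direction 8 were lower in all 6 libraries, against 6.1% of those genes, and 10 had library ranges that did not overlap, against 9.96%. Clusters are not tested against each other, and Grin2c was among the first genes of the larger cluster although it was not used to form it.

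Gria2 averaged 418.8 CPM in the Gfap cluster and 1900 CPM in the other. Gabbr2 averaged 44.0 CPM against 294.0 CPM, Grm3 944.0 CPM against 2174 CPM, and Grin2c 110.7 CPM against 370.3 CPM. These receptors were thus lower in the Gfap cluster. Grin3a averaged 396.1 CPM in the Gfap cluster against 103.5 CPM, Gria1 628.5 CPM against 254.5 CPM, and Grik2 934.2 CPM against 535.6 CPM. Gabrb1 did not separate the clusters, at 3871 CPM in the Gfap cluster and 4148 CPM in the other, with overlapping libraries. The Gfap cluster made up 14.2% and 17.7% of astrocyte-like nuclei in M28L, 18.4% and 28.6% in P522R, and 17.6% and 13.1% in 5xFAD, so P522R replicate 3, with the fewest astrocyte-like nuclei, had the highest share. That library also had the lowest Gria2 in astrocyte-like nuclei, 1243 CPM against 1687 to 1864 CPM in the other 5. It was the lowest within the larger cluster too, with 1642 CPM against 1862 to 2075 CPM. Within the Gfap cluster it was not, with 415.4 CPM against 358.4 to 492.4 CPM.

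**Figure D3:**
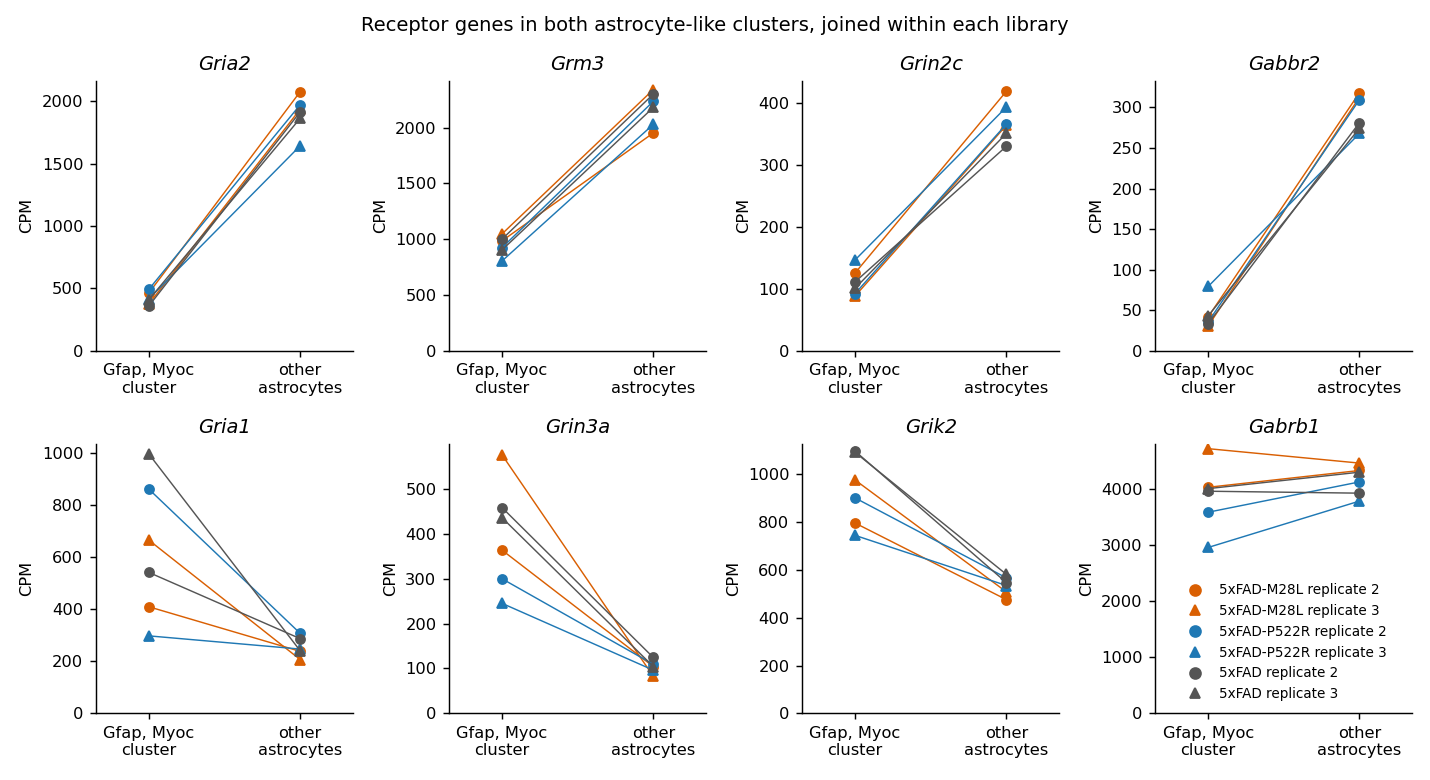
CPM of 8 receptor genes in the astrocyte-like cluster led by Gfap and Myoc (left) and in the other astrocyte-like cluster (right), with lines joining the values of 1 library. Gria2, Grm3, Grin2c and Gabbr2 are lower in the Gfap cluster in every library, Gria1, Grin3a and Grik2 are higher, and Gabrb1 overlaps.

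Neuronal clusters also differed in their receptor set. The inhibitory-like cluster led by Drd2 and Rgs9, genes of striatal projection neurons, averaged 3406 CPM of Grm5 and 1937 CPM of Gabrg3. The cluster led by Kcnmb2 and Calb2 averaged 3457 CPM of Gria1, 2536 CPM of Gria4 and 145.9 CPM of Grin2d. The cluster led by Cpa6 and Lgr5 averaged 333.9 CPM of Gabra5, which was also among its first genes. Grin3a averaged 761.9 CPM in the cluster led by Stac and Drd3, 333.3 CPM in that led by Reln and Vip, 133.2 CPM in that led by Foxp2, and at most 55.5 CPM in the other 5 inhibitory-like clusters.

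The 93 nuclei like olfactory ensheathing cells were too few to test. They came from 5 libraries and averaged 489.6 CPM of Grik1, 450.4 CPM of Grik3 and 426.6 CPM of Grin3a. Gabrg3 ranged among them from 58.3 CPM in M28L replicate 2 to 1250 CPM in 5xFAD replicate 2.

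Comparisons between groups used counts summed per library and class, edgeR's quasi-likelihood test on all 6 libraries, and Benjamini-Hochberg adjustment over all genes of a class, with an adjusted p under 0.05 as the threshold. Values for groups are normalized CPM, scaled by edgeR's library factors, and fold changes are log2 of the first group over the second. Of the 33 genes, between 11 (border macrophage-like) and 33 (both neuronal classes) passed the filter on low counts in a class, which made 288 pairs of gene and class. The 3 comparisons share groups, so their results are not independent of each other. The fit had no term for the replicate number, and a fit with that term called more receptor pairs, as described at the end.

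M28L against 5xFAD gave no called receptor gene in any class. Among all genes and classes edgeR called 0.0016% of tests, or 2 of 124839. At an unadjusted p under 0.05 there were 36 receptor pairs (12.5%, against 7.35% of all tests), and DESeq2 called 2, with 0.177% of all tests. The median receptor log2 fold change was 0.02, and that of all genes -0.004. In microglia-like nuclei none of 29 receptor genes had an unadjusted p under 0.05, where 5.51% of all genes of the class had one, so the count is near that of other genes.

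The smallest p belonged to Grin3a in inhibitory-like neurons, described with the P522R comparison. Gria4 in oligodendrocyte-like nuclei stood at 295.5 and 325.0 normalized CPM in M28L, against 476.6 and 383.5 in 5xFAD (log2 fold change -0.47, SE 0.11, edgeR adjusted p = 0.333), and DESeq2 called it at an adjusted p of 0.0138. Its fold change was -0.31 without 5xFAD replicate 2. Grik5 in oligodendrocyte precursor-like nuclei stood at 137.8 and 129.9 in M28L, against 109.0 and 113.3 in 5xFAD (0.27, SE 0.07, edgeR adjusted p = 0.329). These pairs were chosen for their small p, so a lack of overlap between groups is no added support. In them the 2 libraries of one group did not overlap with those of the other, and no difference passed the threshold in edgeR without a replicate term. The same held for Grm8 in oligodendrocyte precursor-like nuclei (log2 fold change -0.51), Gria4 in excitatory-like neurons (-0.23), Grik4 in inhibitory-like neurons (0.41), Grin2a in oligodendrocyte-like nuclei (0.48) and Grin2a in mural-like nuclei (-1.53), with edgeR adjusted p between 0.329 and 0.844. With the replicate number as a block, edgeR called Gria4 (adjusted p = 0.0143) and Grin2a (0.0321) in oligodendrocyte-like nuclei. In oligodendrocyte precursor-like nuclei that fit called Grik5 (0.0263) and Grm8 (0.00246). The labels do not say that a number marks a shared animal, litter or day.

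P522R against 5xFAD gave 1 called receptor pair of 288, where 0.0256% of all tests were called. At an unadjusted p under 0.05 there were 61 receptor pairs (21.2%, against 8.87% of all tests), and DESeq2 called 6, with 0.3% of all tests. By class this share ran from 4% of 25 receptor genes in committed precursor-like nuclei (4.67% of all genes there) to 40.6% of 32 in oligodendrocyte-like nuclei (11.4%). In microglia-like nuclei 8 of 29 receptor genes had such a p (27.6%, against 11.15% of all genes of the class). The called pair was Grin3a in inhibitory-like neurons, a class in which 0.162% of 14835 genes were called. Grin3a stood at 225.9 and 234.7 normalized CPM in P522R, against 112.8 and 122.9 in 5xFAD, and M28L lay between them with 195.8 and 212.8. It rose in P522R by a log2 fold change of 0.97 (SE 0.10, edgeR adjusted p = 0.0257), and M28L against 5xFAD gave 0.79 (SE 0.10, adjusted p = 0.366). DESeq2 called both, at adjusted p of 1.43e-08 and 7.37e-05. All 4 variant libraries were above both 5xFAD libraries.

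The make-up of inhibitory-like nuclei moved with this result. The cluster led by Stac and Drd3, which carried the most Grin3a, made up 17.0% and 22.1% of inhibitory-like nuclei in P522R (119 and 109 nuclei), 9.0% and 6.37% in M28L (46 and 32 nuclei), and 1.44% and 2.13% in 5xFAD (14 and 9 nuclei). Without that cluster the fold change of P522R against 5xFAD was 0.35 and was no longer called (edgeR adjusted p = 0.704). Leaving it out was a choice made after seeing the data. The part of the cluster's share in the Grin3a result was not tested. Within the cluster Grin3a stood at 798.6 and 619.8 CPM in P522R, 894.7 and 843.7 CPM in M28L, and 780.6 and 633.7 CPM in 5xFAD, so P522R and 5xFAD overlapped. Both M28L libraries lay above both 5xFAD libraries there. In the cluster led by Reln and Vip the log2 fold change of P522R against 5xFAD was -0.06 (edgeR adjusted p = 0.972). In the cluster led by Foxp2 Grin3a stood at 180.0 and 184.7 CPM in P522R, against 153.6 and 93.5 CPM in 5xFAD, with no overlap (log2 fold change 0.47, SE 0.29, edgeR adjusted p = 0.731). With all clusters kept, leaving out any 1 of the 6 libraries (M28L replicates 2 and 3, P522R replicates 2 and 3, 5xFAD replicates 2 and 3) left a fold change of 0.92 to 1.06, with edgeR adjusted p from 0.0636 to 0.326, and fitting only P522R and 5xFAD gave 0.99 (adjusted p = 0.0839), none of which passed the threshold.

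**Figure D4:**
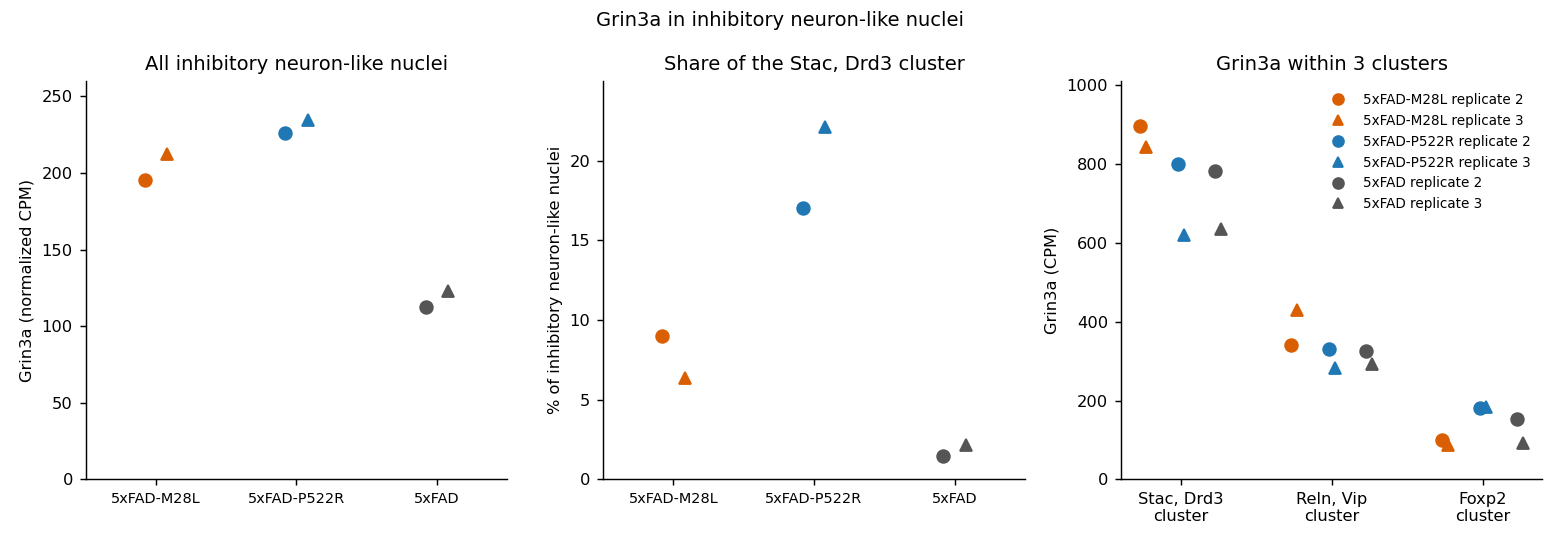
Left, normalized CPM of Grin3a in inhibitory-like neurons by group; middle, percent of inhibitory-like nuclei in the cluster led by Stac and Drd3; right, CPM of Grin3a inside 3 clusters; 1 point per library. The share of the cluster follows the order of Grin3a over groups (17.0% and 22.1% in P522R, 1.44% and 2.13% in 5xFAD), while P522R and 5xFAD overlap within the clusters led by Stac and Drd3 and by Reln and Vip but not within that led by Foxp2.

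The next smallest p values belonged to Gabrb1 outside astrocytes. In microglia-like nuclei it stood at 33.02 and 27.87 normalized CPM in P522R, against 54.3 and 60.9 in 5xFAD (log2 fold change -0.94, SE 0.14, edgeR adjusted p = 0.190), and at 60.2 and 58.1 in M28L. In oligodendrocyte-like nuclei it stood at 33.7 and 34.4 in P522R, against 48.7 and 57.6 in 5xFAD (-0.64, SE 0.10, edgeR adjusted p = 0.248), and at 54.8 and 58.9 in M28L. Both P522R libraries were below the other 4 in both classes, and neither difference passed the threshold in edgeR, although DESeq2 called both (adjusted p = 0.00697 and 0.00119). With the replicate number as a block, edgeR called both too (adjusted p = 0.00745 and 0.00162), but the labels do not say that a number marks a shared animal, litter or day.

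Astrocyte transcripts moved with it. The summed level of the 10 astrocyte transcripts in microglia-like nuclei was 676.4 and 615.1 CPM in P522R, 874.2 and 909.9 CPM in M28L, and 868.7 and 880.8 CPM in 5xFAD, and none of the 10 was at 0. In oligodendrocyte-like nuclei it was 591.3 and 560.3 CPM in P522R, 776.3 and 663.4 CPM in M28L, and 775.8 and 721.2 CPM in 5xFAD. Astrocyte-like nuclei made up 3.56% and 1.67% of nuclei in P522R, 7.25% and 6.09% in M28L, and 10.5% and 8.64% in 5xFAD. The part of these transcripts in the Gabrb1 values was not tested. In astrocyte-like nuclei themselves the log2 fold change of P522R against 5xFAD was -0.21 (edgeR adjusted p = 0.491). Gabrb1 was at 1.30 and 1.10 in border macrophage-like and endothelial-like nuclei (edgeR adjusted p = 0.996 and 0.962), where the astrocyte sum of P522R replicate 2 was the highest, with 2461 and 1640 CPM. Of the 10 transcripts, Apoe was the highest there relative to its astrocyte-like level, at 88.4% and 53.3%, against list medians of 2.68% and 3.39%. In microglia-like and oligodendrocyte-like nuclei Apoe was also the highest, at 18.8% and 21.0%. The part of Apoe in the sums was not tested.

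**Figure D5:**
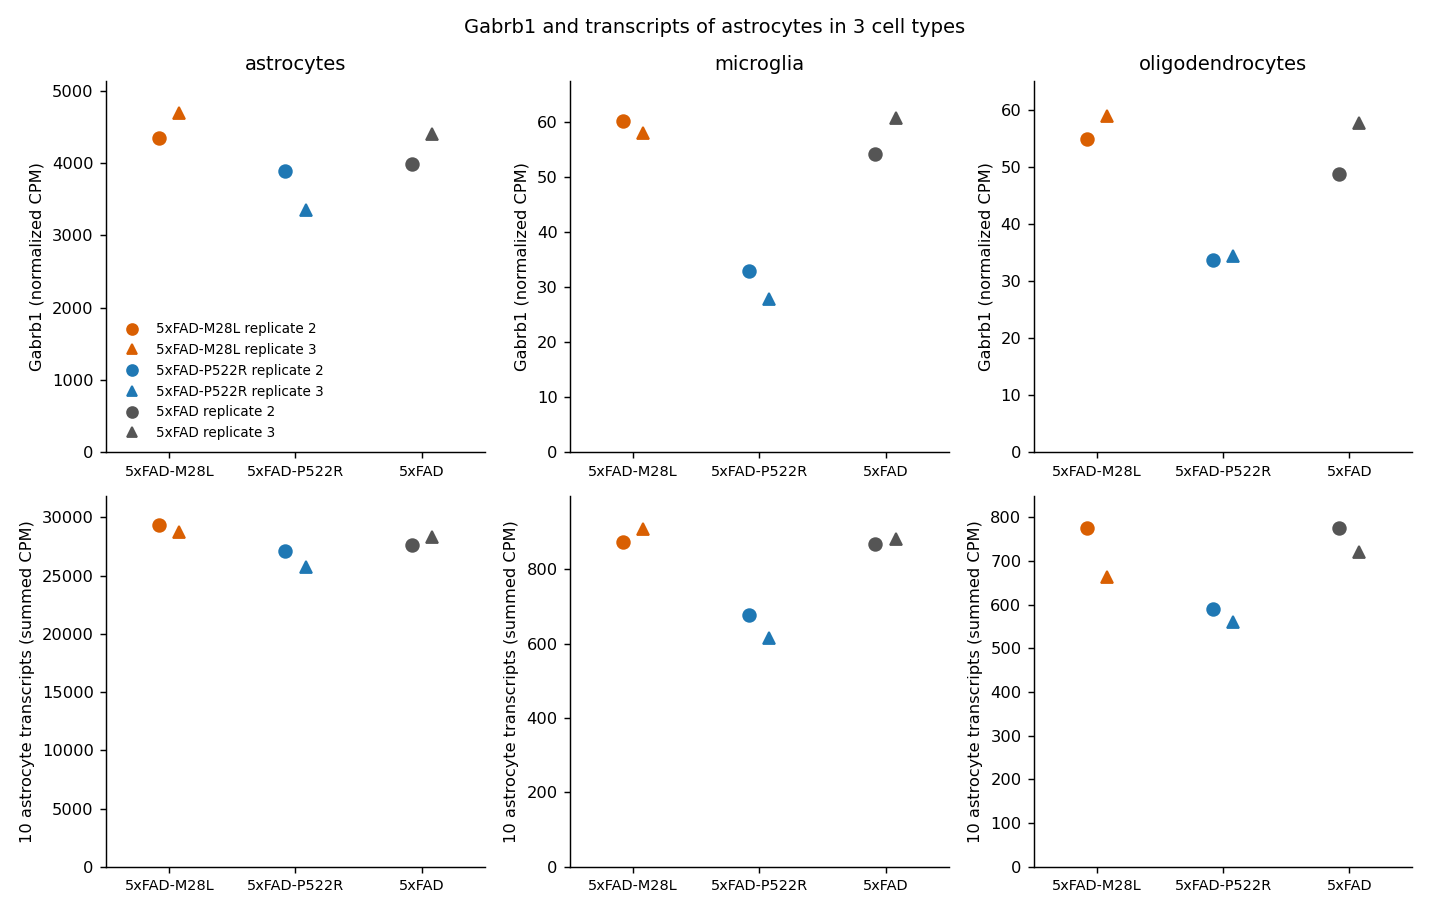
Normalized CPM of Gabrb1 (top) and summed CPM of 10 astrocyte transcripts (bottom) in astrocyte-, microglia- and oligodendrocyte-like nuclei by group, 1 point per library. In microglia-like nuclei P522R has 33.02 and 27.87 normalized CPM of Gabrb1 against 54.3 and 60.9 in 5xFAD, and the astrocyte sum is lower in the same libraries.

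The other receptor pairs with the smallest p in P522R against 5xFAD did not pass the threshold in edgeR without a replicate term either. With the replicate number as a block, edgeR called some of them, as given at the end. Grin2a in oligodendrocyte-like nuclei stood at 25.5 and 31.5 normalized CPM in P522R, against 16.9 and 19.3 in 5xFAD (0.65, SE 0.13, edgeR adjusted p = 0.321), and Grin2b gave 0.59 (adjusted p = 0.364). DESeq2 called Grin2a there (adjusted p = 0.0479). The summed level of the neuronal transcripts in the same class was 832.1 and 925.8 CPM in P522R, against 653.6 and 677.4 CPM in 5xFAD, with none of the 10 at 0, and its part in the result was not tested. Grin2c in oligodendrocyte-like nuclei stood at 1.27 and 0.647 in P522R, against 3.05 and 3.63 in 5xFAD (-1.77, SE 0.36, edgeR adjusted p = 0.330). These are low levels, with a mean of 2.02 CPM in the class. That mean was 0.620% of the astrocyte-like level, where the 10 astrocyte transcripts had a median of 2.28%. The astrocyte sum was 591.3 and 560.3 CPM in P522R, against 775.8 and 721.2 CPM in 5xFAD, and its part in the Grin2c value was not tested. Grm3 in excitatory-like neurons stood at 430.9 and 509.1 in P522R, against 339.6 and 377.4 in 5xFAD (0.39, SE 0.09, edgeR adjusted p = 0.458), and DESeq2 called it (adjusted p = 0.0372). Gria4 in endothelial-like nuclei stood at 306.3 and 177.9 in P522R, against 108.9 and 60.9 in 5xFAD (1.54, SE 0.33, edgeR adjusted p = 0.903), and its fold change was 1.00 without P522R replicate 2. In none of these pairs did the groups overlap, which is no added support because the pairs were chosen for their small p. The remaining receptor gene called by DESeq2 in this comparison was Grik2 in oligodendrocyte precursor-like nuclei (log2 fold change -0.21, DESeq2 adjusted p = 0.0418).

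In microglia-like nuclei the oligodendrocyte transcripts and Grm3 were higher in the same libraries. Grm3 stood at 142.1 and 317.8 normalized CPM in P522R, against 109.2 and 141.6 in 5xFAD (0.88, SE 0.32, edgeR adjusted p = 0.385). The summed level of 8 oligodendrocyte transcripts there was 1358 and 2312 CPM in P522R, against 753.8 and 973.9 CPM in 5xFAD, with none at 0, and its part in the Grm3 value was not tested.

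P522R against M28L gave no called receptor gene, where 0.00721% of all tests were called. At an unadjusted p under 0.05 there were 35 receptor pairs (12.2%, against 6.15% of all tests), and DESeq2 called 3, all of them Gabrb1, with 0.179% of all tests. Gabrb1 gave log2 fold changes of -0.97 in microglia-like (SE 0.14, edgeR adjusted p = 0.121), -0.74 in oligodendrocyte-like (SE 0.10, adjusted p = 0.287) and -0.32 in astrocyte-like nuclei (adjusted p = 0.528). With the replicate number as a block, edgeR called it in microglia-like (adjusted p = 0.0132) and oligodendrocyte-like nuclei (0.00511). In mural-like nuclei it stood at 40.2 and 29.5 normalized CPM in P522R, against 148.3 and 437.9 in M28L (-2.96, SE 0.69, edgeR adjusted p = 0.117), and at 238.9 and 40.9 in 5xFAD. The astrocyte sum in mural-like nuclei was 610.3 and 617.7 CPM in P522R, 2035 and 2873 CPM in M28L, and 2542 and 779.0 CPM in 5xFAD, and its part in the Gabrb1 value was not tested. Gabrb1 in fibroblast-like nuclei stood at 25.6 and 24.3 in P522R, against 187.1 and 39.8 in M28L (-2.26, SE 0.60, edgeR adjusted p = 0.938), and its fold change was -0.68 without M28L replicate 2 and -1.11 with called doublets kept. Grid1 in mural-like nuclei stood at 23.5 and 51.7 in P522R, against 83.4 and 155.0 in M28L (-1.81, SE 0.55, edgeR adjusted p = 0.330), and its fold change was -1.19 without P522R replicate 2 and -1.18 with called doublets kept.

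Among the named pairs, endothelial-like nuclei gave the largest positive differences, in a class with few nuclei (24 to 151 per library). Gria4 stood at 306.3 and 177.9 normalized CPM in P522R, against 56.6 and 50.9 in M28L (2.22, SE 0.35, edgeR adjusted p = 0.440). Grin2b stood at 191.1 and 75.3 in P522R, against 44.1 and 25.4 in M28L (2.03, SE 0.44, edgeR adjusted p = 0.730), and its fold change was 1.05 without P522R replicate 2. Grik1 stood at 403.3 and 13.7 in P522R, against 21.0 and 27.7 in M28L, so its fold change of 3.27 (SE 0.83, edgeR adjusted p = 0.784) came from P522R replicate 2 and was -0.86 without it. The summed level of the neuronal transcripts in this class was 2938 and 972.0 CPM in P522R and 1442 and 775.8 CPM in M28L, with the same library highest, and its part in these values was not tested.

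Oligodendrocyte precursor-like nuclei, where many receptor genes are high, showed small differences in P522R against M28L. There 28 of 31 receptor genes were lower in P522R and 3 higher, with a median log2 fold change of -0.10, against -0.006 for all genes of the class. How many of all genes of the class were lower was not counted. Genes of the same libraries are not independent, so the count of directions is a description with no test. No receptor gene passed the threshold there in edgeR without a replicate term, 3 had an unadjusted p under 0.05, and DESeq2 called none. With the replicate number as a block, edgeR called Gabrb1 (log2 fold change -0.27, adjusted p = 0.0408) and Grm8 (0.44, adjusted p = 0.0491).

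Genes that handle the transmitters or hold the receptors in place were read from 4 lists of 50 genes, which gave 395 pairs of gene and class in each comparison. In edgeR none was called in M28L against 5xFAD or P522R against 5xFAD, and 1 was called in P522R against M28L. An unadjusted p under 0.05 was found for 45 of 395 pairs in M28L against 5xFAD, 69 of 395 in P522R against 5xFAD and 61 of 395 in P522R against M28L. Over all tests, 7.35%, 8.87% and 6.15% had such a p in the same order. DESeq2 called 1, 7 and 6 pairs in the same order, where it called 0.177%, 0.3% and 0.179% of all tests. The called one was Slc1a2, the main glutamate transporter of astrocytes, in mural-like nuclei, where 0.13% of genes were called, with 107.2 and 88.6 normalized CPM in P522R, against 627.2 and 670.4 in M28L, and 574.6 and 143.1 in 5xFAD. It fell in P522R by a log2 fold change of -2.69 (SE 0.45, edgeR adjusted p = 0.0259), in the class and libraries in which the astrocyte sum, which includes Slc1a2, was lower too, and its part in the result was not tested. Leaving out P522R replicate 2 gave -2.88 (edgeR adjusted p = 0.0667), leaving out P522R replicate 3 gave -2.62 (0.0523), keeping called doublets gave -1.86 (0.193), a minimum count of 50 gave -2.66 (0.402) and DESeq2 gave -2.73 (0.352), so the size stayed near that of all libraries except with the doublets, and none of these passed the threshold. In microglia-like nuclei Slc1a2 stood at 44.4 and 44.8 in P522R, 101.4 and 90.5 in M28L, and 100.2 and 90.7 in 5xFAD (edgeR adjusted p = 0.0629 against 5xFAD and 0.0693 against M28L). In oligodendrocyte-like nuclei P522R against M28L gave -0.55 for Slc1a2 (SE 0.10, edgeR adjusted p = 0.418), and with cell types at resolution 2 it gave -0.97 (0.0231).

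Slc7a11, the cystine and glutamate exchanger, stood in astrocyte-like nuclei at 345.7 and 355.9 normalized CPM in P522R, against 504.6 and 517.2 in 5xFAD (-0.54, SE 0.10, edgeR adjusted p = 0.216). It gave -1.68 in oligodendrocyte-like and -2.62 in excitatory-like nuclei (edgeR adjusted p = 0.263 and 0.380), where it stood at most at 12.8 CPM. P522R against M28L gave -1.66 for Slc7a11 in oligodendrocyte-like nuclei (edgeR adjusted p = 0.418). Homer1, a scaffold of Grm5, stood in excitatory-like neurons at 415.6 and 358.4 in M28L, against 647.1 and 494.9 in 5xFAD (-0.56, SE 0.13, edgeR adjusted p = 0.339), and its fold change was -0.35 without 5xFAD replicate 2. Abat, which breaks down GABA, gave 0.46 in oligodendrocyte-like and 0.81 in fibroblast-like nuclei in M28L against 5xFAD, and Slc1a3, another glutamate transporter, gave 1.05 in mural-like nuclei, or 0.67 without M28L replicate 3 (edgeR adjusted p of 0.333 and above). By list, the median log2 fold change of P522R against M28L was -0.22 for glutamate transport and metabolism, -0.18 for GABA synthesis, breakdown and transport (10 of 52 pairs higher), -0.03 for auxiliary subunits of AMPA and kainate receptors and -0.004 for receptor scaffolds and adhesion, against 0.002 for all genes. The medians of M28L against 5xFAD were 0.11, 0.12, 0.01 and 0.03 in the same order of lists, and those of P522R against 5xFAD -0.06, -0.02, -0.01 and 0.02.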

How the data were processed

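For each of the 6 libraries the deposited file holds unnormalized UMI counts, 1 per gene and barcode. Cell Ranger 6.1.2 and mm10 are named per the submitters' processing notes, and per the file headers 5xFAD-P522R replicate 3 was made with 5.0.1. Whether intronic reads were counted, and with which strand setting, is not given in the sources used here.

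Nuclei needed 500 UMIs, 300 detected genes and no more than 5% of UMIs from mitochondrial genes. Scrublet (scanpy 1.11.5, expected rate 0.08) marked under 0.5% of nuclei in 2 libraries by its own threshold, so a common score of 0.311 was used. Clustering took 2000 variable genes without the 33 receptor genes, 30 principal components, 20 neighbours and Leiden resolution 1, and gave 32 clusters, 4 of them unnamed. A name needed at least 3 markers higher by a log2 fold of 1 and a share of 0.4 of the list (0.25 for neurons). Classes with at least 20 nuclei in every library were summed per library and tested with edgeR 4.0.16 in R 4.3.3 (TMM factors, filterByExpr minimum 10, all 6 libraries in 1 fit, no covariate), and DESeq2 1.42.0 was an alternative. The tests were checked on simulated counts. With 2 libraries per group, p-values measure the spread between libraries, which may be technical. Counting error limits the smaller classes, with 149181 to 622240 UMIs per library in endothelial-like nuclei against 15827702 to 22363650 in oligodendrocyte-like nuclei.

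Each comparison names every receptor gene called and the 8 pairs of gene and class with the smallest unadjusted p, and for the transmitter and scaffold lists every gene called and the 4 pairs with the smallest p. The members and lists were chosen with earlier results of these data known. Other genes, Grm3 in microglia-like nuclei and the examples from single clusters were chosen after their values were seen. Gene positions come from GENCODE vM21 on GRCm38. Alternatives left out each library, changed the filters, the factors, the doublet rule, the resolution or the groups fitted, or added a replicate term.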

Additional observations from a re-analysis of the deposited data

How the results depend on the processing

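Counts of called receptor pairs are given in the order M28L against 5xFAD, then P522R against 5xFAD, then P522R against M28L. The edgeR fit with all libraries gave 0, 1 and 0 (2, 32 and 9 over all genes). DESeq2 called 2, 6 and 3 (221, 375 and 223 over all genes), and no filter on low counts gave 6, 21 and 14 (2809, 4649 and 2186). Fitting only the 2 groups compared gave 0 receptor pairs in P522R against 5xFAD and 2 in P522R against M28L (0, 17 and 220 over all genes). A minimum count of 50 gave 2 over all genes in P522R against M28L, keeping doublets gave 4 in M28L against 5xFAD and 2 in P522R against M28L, and a resolution of 2 gave 12 in M28L against 5xFAD. Without the cluster led by Stac and Drd3, a choice made after seeing the data, P522R against 5xFAD had 0 receptor pairs and 8 over all genes. The cause of these changes was not tested. Leaving out each library in turn gave 0 to 2, 0 to 4 and 1 to 3 receptor pairs, and 2 to 88, 21 to 526 and 6 to 307 over all genes. In P522R against 5xFAD it was 0 without 5xFAD replicate 2 or either M28L library, 2 without P522R replicate 3, and 4 without P522R replicate 2 or 5xFAD replicate 3. Receptor genes that were highest outside neurons numbered 12 to 14. A single named value turned its sign, Grik1 in endothelial-like nuclei in P522R against M28L, at -0.86 without P522R replicate 2 and 4.02 without P522R replicate 3.

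With the replicate number as a block, 8, 13 and 4 receptor pairs were called (2253, 2614 and 427 over all genes). The labels do not say that a number marks a shared animal, litter or day, and with 2 numbers the data cannot settle it. The deviations of same-numbered libraries correlated over 0.1 for all 3 pairs of groups in 6 of 11 classes (0.106 to 0.424, oligodendrocyte-like highest), a hint from the data that numbers may pair libraries there, and ran from -0.068 to 0.255 in the other 5. In P522R against 5xFAD the block called Gabrb1 in microglia-like (adjusted p = 0.00745) and oligodendrocyte-like nuclei (0.00162), Grin2a (0.00755), Grin2b (0.0201) and Grin2c (0.0104) in oligodendrocyte-like nuclei and Grm3 in excitatory-like neurons (0.0209), with fold changes near those without it, and it kept the Grin3a call (0.0312). Over the named fold changes and all their alternatives, 446 values kept their direction and side of the threshold, 90 passed it newly, 13 no longer passed it and 1 reversed. Depth limits the endothelial-, mural- and fibroblast-like classes and the border macrophage-like class most, where few receptor UMIs were counted per library.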
